A study of Homo sapiens with 32 samples.

Results

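The 10 transcripts described here are known as hosts of small nucleolar RNAs (snoRNAs) or as RNAs sensitive to decay during translation, and were followed through 32 RNA libraries of HCT116 cells, a human colorectal carcinoma line. They were the rows of the deposited count table whose Ensembl identifier maps to the symbols *GAS5*, *SNHG1*, *SNHG5*, *SNHG8*, *SNHG12*, *SNHG15*, *SNHG16*, *ZFAS1*, *EPB41L4A-AS1* and *TAF1D*. All 10 were found among the 60660 identifiers of the table, and all 10 passed the filter on low counts in every comparison. GENCODE release 29 gives 9 of them a noncoding gene type. *TAF1D*, which encodes a subunit of the RNA polymerase I factor SL1, is annotated as protein coding, and 7 of its 22 transcripts there carry the nonsense-mediated decay type. Decay itself was not measured in these libraries, only the level of poly(A) RNA.

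All lines carried OsTIR1 under a doxycycline-inducible tetON system (genotype Tet-OsTIR1-PURO). Parental cells were represented by samples 1 and 2, here called P1 and P2, with 4 DMSO and 4 tunicamycin libraries. IGF2BP3 knockout cells were clones A3, D12 and E4, and IGF2BP2 knockout cells were clones B7, F6 and G6, each genotype with 6 DMSO and 6 tunicamycin libraries. Each line and treatment had 2 libraries, numbered replicate 1 and 2. The knockouts are single-cell clones sorted for GFP after transient transfection of a Cas9 plasmid. Clones A3 and E4 were made with one guide and D12 with another, and clones B7 and F6 with one guide and G6 with another. Parental cells and IGF2BP3 knockout clones received 5 µg/mL tunicamycin for 4 h or DMSO, per the labels' protocols. The labels used here give no dose or time for the IGF2BP2 knockout clones. The 2 control libraries of clone G6 are titled as controls while their treatment characteristic names tunicamycin. They were placed with DMSO by title, and their *HSPA5* level of 822 and 992 CPM (counts scaled to library size) compares with 774 to 1109 in the other DMSO libraries and 7917 to 10903 in the tunicamycin libraries. Their *DNAJB9* level of 8.16 and 9.02 CPM lay just below the 9.07 to 12.02 of the other DMSO libraries, far from the 139 to 183 of the tunicamycin libraries. Their *ASNS* level of 1.73 and 1.80 CPM lay at the upper end of the 0.612 to 1.79 of the other DMSO libraries, the higher of them just above it, where the tunicamycin libraries were at 7.59 to 16.6 CPM. *HERPUD1* and *TRIB3* lay within the range of the other DMSO libraries.

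Tunicamycin blocks N-linked glycosylation and so causes stress of the endoplasmic reticulum. The sensor PERK then phosphorylates the initiation factor eIF2α, which lowers translation as a whole and favours translation of *ATF4*. The snoRNA host genes studied here carry snoRNAs in their introns. In the noncoding ones, the spliced exons that remain form an RNA with short open reading frames. Several such RNAs, *GAS5* among them, are known to be removed by nonsense-mediated decay (NMD), a pathway that needs a translating ribosome and the helicase UPF1. Many host genes also begin with a 5′ terminal oligopyrimidine (5′TOP) tract, a C followed by pyrimidines, which ties their mRNAs to growth signals. IGF2BP2 and IGF2BP3 are cytoplasmic RNA-binding proteins that bind many transcripts.

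The annotated starts of the transcripts are shown because the 5′TOP tract is the sequence feature for which host genes are known. RefSeq promoters (GRCh38.p14, 250 bases before to 50 after each start) were matched by symbol for 9 of the 10 transcripts, all except *SNHG15*. Each line below holds 20 bases before the start and 30 bases from it, 5′ to 3′ on the strand of the gene. Capitals mark the unbroken run of pyrimidines that begins at the annotated start.
SNHG12: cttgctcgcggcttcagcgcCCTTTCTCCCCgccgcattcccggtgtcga
SNHG5: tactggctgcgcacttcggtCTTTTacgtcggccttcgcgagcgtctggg
ZFAS1: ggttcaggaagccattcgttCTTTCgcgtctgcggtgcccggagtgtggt
SNHG8: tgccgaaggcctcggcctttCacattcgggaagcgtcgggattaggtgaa
GAS5: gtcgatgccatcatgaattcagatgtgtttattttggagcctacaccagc
EPB41L4A-AS1: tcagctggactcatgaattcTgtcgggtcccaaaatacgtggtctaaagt
These windows lie at chr1:28581844-28581893 (minus strand), chr6:85678704-85678753 (minus), chr20:49278622-49278671 (plus), chr4:118278742-118278791 (plus), chr1:173869016-173869065 (minus) and chr5:112160506-112160555 (plus). A C followed by at least 4 pyrimidines stood at the annotated start of *SNHG12*, *SNHG5*, *ZFAS1* and *TAF1D*. The same start was found in 4.07% of the 35116 promoters of the table. *SNHG8* and *SNHG16* had such a tract within 5 bases of the start, as did 21.1% of all promoters. *GAS5*, *SNHG1* and *EPB41L4A-AS1* had none within that distance. Among the 29 GENCODE transcripts of *GAS5*, 6 did begin with such a tract, against 2.41% of all GENCODE transcripts, so the *GAS5* start depends on the transcript chosen. Such transcripts were also annotated for *SNHG8* (1 of 5), *SNHG16* (2 of 8) and *SNHG1* (1 of 25), while *EPB41L4A-AS1* had 0 of 4. The RefSeq start of *GAS5* shown here also lies upstream of the span that GENCODE release 29 gives the gene.

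The libraries held 16651438 to 24913021 counts, with a median of 21441775.5. The epithelial keratins *KRT8* (1673 to 2801 CPM) and *KRT18* (417 to 860 CPM) and the intestinal factor *CDX2* (8.59 to 15.9 CPM) were present in every library. *VIL1* was at 0 to 0.147 CPM, so this marker of the gut epithelium was at or near 0. The leukocyte marker *PTPRC* did not exceed 0.0642 CPM, the fibroblast collagen *COL1A2* 0.0523 CPM and the endothelial marker *PECAM1* 0.144 CPM, while *COL1A1* was at 4.61 to 12.3 CPM. *IGF2BP3* was lower in its knockout, at 18.7 to 41.8 CPM in DMSO against 70.1 to 82.8 in parental cells, a log2 fold change of -1.48 ± 0.20 (SE, edgeR quasi-likelihood adjusted p = 0.00251). *IGF2BP2* was at 81.3 to 92.8 CPM in its knockout in DMSO against 159 to 195 in parental cells, a log2 fold change of -1.02 ± 0.06 (edgeR adjusted p = 1.39e-05). The stress genes *HSPA5*, *DNAJB9*, *HERPUD1*, *ASNS* and *TRIB3* rose in all 3 genotypes, with medians of 3.65, 3.68 and 3.498 on the log2 scale in parental, IGF2BP3 knockout and IGF2BP2 knockout cells.

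**Figure D1:**
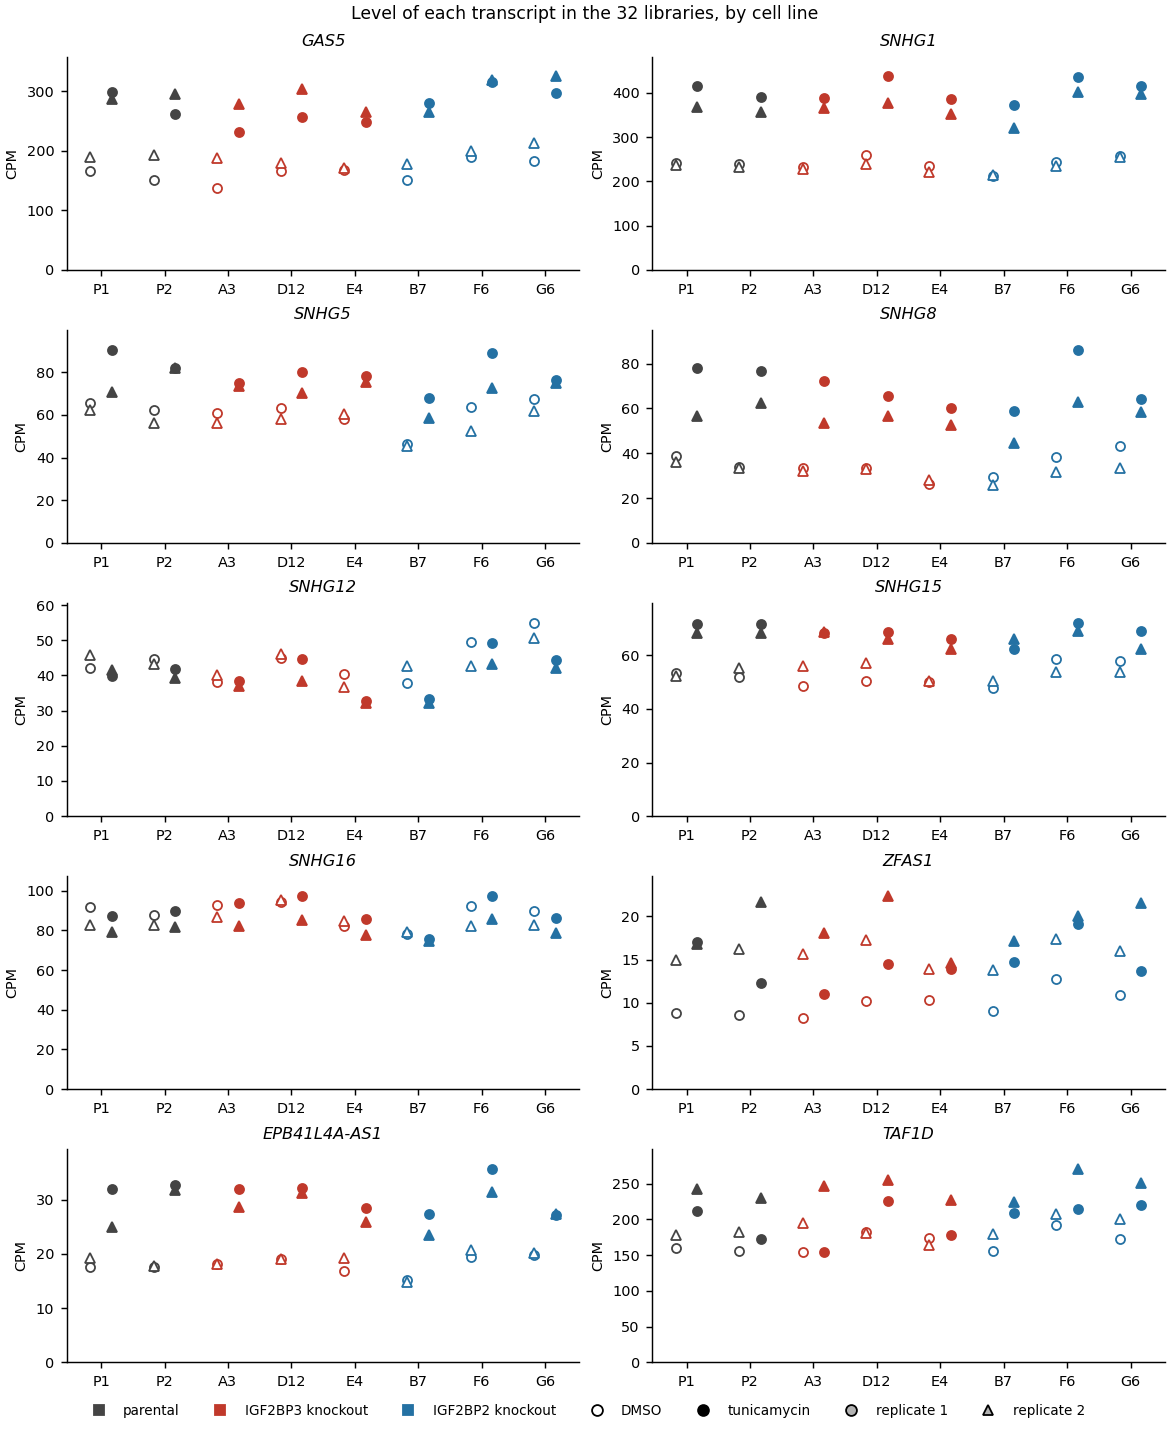
Level of each of the 10 transcripts in CPM (vertical axis, from 0) in the 32 libraries, by cell line (horizontal axis). Open symbols are DMSO and filled symbols tunicamycin, circles are replicate 1 and triangles replicate 2, and colours give the genotype. *GAS5*, *SNHG1*, *SNHG8*, *SNHG15* and *EPB41L4A-AS1* have every tunicamycin library above every DMSO library within each genotype, whereas the treatments overlap for *SNHG16* in all 3.

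Tunicamycin raised most of these transcripts, by 1.23-fold to 1.94-fold where they passed the test, and did so in each genotype. In parental cells 7 of the 10 rose and 0 fell at a Benjamini-Hochberg adjusted p under 0.05 in edgeR's quasi-likelihood test, where 12.5% of the 14398 genes tested rose and 14.3% fell. In IGF2BP3 knockout cells 7 rose and 0 fell, against 16.2% and 17.6% of 14265 genes. In IGF2BP2 knockout cells 8 rose and 1 fell, against 19.2% and 20.9% of 14145 genes. The median log2 fold change of the 10 was 0.45, 0.35 and 0.40 in the 3 genotypes, where the median over all genes tested was -0.0074, -0.0054 and -0.011. The 10 transcripts, and the gene groups set beside them below, were chosen with earlier results of these data known. Their contrast with all genes is therefore not free of selection. *GAS5*, *SNHG1*, *SNHG5*, *SNHG8*, *SNHG15*, *EPB41L4A-AS1* and *TAF1D* were the 7 that rose in all 3. A fit blocked on replicate number called 8 higher in each genotype, these 7 and *ZFAS1*. Bulk libraries cannot tell a change in RNA per cell from a change in which cells survive, and nothing in the labels says that the 2 libraries of a line were separate cultures, so the p-values measure the spread between these libraries.

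*SNHG8*, a short host gene on chromosome 4 (chr4:118278709-118279823, plus strand) with *SNORA24* in its intron, had the largest log2 fold change of the 10 in every genotype. In parental DMSO libraries its level was 38.6 and 36.0 CPM in P1 and 34.0 and 33.4 CPM in P2 (replicates 1 and 2). In tunicamycin it was 78.0 and 56.6 CPM in P1 and 76.7 and 62.5 CPM in P2. The groups did not overlap, and the 2 replicate 1 libraries were the highest with tunicamycin. The log2 fold change was 0.95 ± 0.10 (SE, n = 4 and 4, edgeR adjusted p = 9.29e-05), a 1.93-fold rise. In IGF2BP3 knockout cells DMSO libraries ranged from 26.5 through a median of 32.6 to 33.6 CPM and tunicamycin libraries from 52.6 through 58.5 to 72.1 CPM. In IGF2BP2 knockout cells the ranges were 25.9 through 32.6 to 43.2 CPM and 44.4 through 60.7 to 86.3 CPM. The treatments were again separate, by a narrow gap in the IGF2BP2 knockout, and the log2 fold changes were 0.96 ± 0.07 and 0.89 ± 0.10 (edgeR adjusted p = 8.76e-08 and 6.73e-06). Taken by replicate number over the 8 lines, the mean log2 ratio was 1.02 ± 0.20 (SD, n = 8) in replicate 1 and 0.82 ± 0.11 in replicate 2.

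*GAS5*, named for growth arrest and known as a decoy for the glucocorticoid receptor, lies at chr1:173863900-173868882 (minus strand). Its parental DMSO level was 167 and 189.9 CPM in P1 and 151 and 192 CPM in P2, and its tunicamycin level 298 and 286 CPM in P1 and 261 and 295 CPM in P2. Every treated library exceeded every control. The log2 fold change was 0.71 ± 0.09 (edgeR adjusted p = 2.73e-04), or 1.63-fold. In the IGF2BP3 knockout the level went from 137, 169 and 188 CPM (lowest, median, highest) in DMSO to 231, 261 and 304 CPM. The corresponding values in the IGF2BP2 knockout were 152, 186 and 214 CPM and 266, 306 and 325 CPM. Neither knockout had overlapping treatments, and the log2 fold changes of 0.65 ± 0.08 and 0.69 ± 0.05 were close to the parental one. Replicate 2 DMSO libraries averaged 189 CPM against 164 CPM in replicate 1, and the mean log2 ratio to tunicamycin was 0.63 ± 0.06 (SD, n = 8 lines) in replicate 2 and 0.74 ± 0.10 in replicate 1.

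*SNHG1* (chr11:62851988-62855914, minus strand), which carries 7 annotated snoRNAs, *SNORD22* and *SNORD30* among them, had control values within a narrow range. In parental cells it was at 241 and 236 CPM in P1 and at 239.9 and 232 CPM in P2 with DMSO, and at 417 and 369 CPM in P1 and 391 and 356 CPM in P2 with tunicamycin. The controls spread by 4.0 CPM (SD, n = 4), far less than the distance to the treated libraries. The rise was 0.69 ± 0.05 on the log2 scale (edgeR adjusted p = 8.44e-06), or 1.62-fold. The IGF2BP3 knockout gave 221, 233 and 259 CPM in DMSO (lowest, median, highest) and 353, 382 and 437 CPM in tunicamycin. The IGF2BP2 knockout gave 213, 239 and 257 CPM and 320.4, 399 and 437 CPM. No libraries overlapped in either, and the log2 fold changes were 0.71 ± 0.04 and 0.73 ± 0.04. The neighbouring gene *SLC3A2*, which encodes a heavy subunit of amino acid transporters, rose by 1.25 ± 0.08 on the log2 scale in parental cells (edgeR adjusted p = 3.13e-06).

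*EPB41L4A-AS1* (chr5:112160526-112164276, plus strand) hosts *SNORA13* and lies wholly within the span of *EPB41L4A* on the other strand. Its parental DMSO level was 17.6 and 19.2 CPM in P1 and 17.7 and 17.8 CPM in P2. With tunicamycin it was 31.95 and 25.0 CPM in P1 and 32.6 and 31.8 CPM in P2. Replicate 2 of P1 was both the highest control and the lowest treated library, and the treatments still did not overlap. The log2 fold change was 0.75 ± 0.09 (edgeR adjusted p = 1.73e-04), or 1.68-fold. The knockouts gave 0.70 ± 0.05 for IGF2BP3, from 16.8, 18.6 and 19.1 CPM to 26.0, 29.9 and 32.2 CPM, and 0.65 ± 0.07 for IGF2BP2, from 14.8, 19.6 and 20.7 CPM to 23.5, 27.3 and 35.7 CPM. The sense gene *EPB41L4A* had a parental log2 fold change of 0.06 ± 0.27 (edgeR adjusted p = 0.898). How strand was used in counting is not given in the sources used here, so reads of the 2 genes cannot be fully told apart.

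*SNHG5* and *SNHG15* rose by 1.25-fold to 1.32-fold. *SNHG5* (chr6:85660950-85678748, minus strand), host of *SNORD50B*, was at 65.6 and 62.6 CPM in P1 and 62.4 and 56.4 CPM in P2 with DMSO. It was at 90.7 and 70.6 CPM in P1 and at 82.2 CPM in both P2 libraries with tunicamycin. The parental groups were separate, with a log2 fold change of 0.40 ± 0.08 (edgeR adjusted p = 0.00299). The fold changes of 0.35 ± 0.04 in the IGF2BP3 knockout and 0.39 ± 0.07 in the IGF2BP2 knockout also passed. In the IGF2BP2 knockout alone the treatments overlapped, with controls up to 67.5 CPM and treated libraries from 58.6 CPM. *SNHG15* (chr7:44983023-44986961, minus strand), host of *SNORA9*, was at 53.3, 52.4, 52.0 and 55.4 CPM in the parental controls and 71.8, 68.5, 71.9 and 68.4 CPM in the treated libraries, in the same order of sample and replicate. Its log2 fold change was 0.40 ± 0.05 (edgeR adjusted p = 2.33e-04) in parental cells, 0.36 ± 0.05 in the IGF2BP3 knockout and 0.32 ± 0.04 in the IGF2BP2 knockout, with no overlap of treatments in any of them.

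*TAF1D* (chr11:93729948-93784391, minus strand) carries 8 annotated snoRNAs, among them *SNORD6* and *SNORA8*. Parental controls were at 159 and 179 CPM in P1 and 156 and 182 CPM in P2, and treated libraries at 211 and 243 CPM in P1 and 173 and 231 CPM in P2. The lowest treated library, replicate 1 of P2, lay within the range of the controls. The log2 fold change was 0.34 ± 0.11 (edgeR adjusted p = 0.0411), and without replicate 1 or replicate 2 of P1 it was 0.31 in either case with adjusted p = 0.131 and 0.125. In the IGF2BP3 knockout it was 0.30 ± 0.11 (edgeR adjusted p = 0.0446), and it did not pass without clone D12 (0.24, adjusted p = 0.308) or without clone E4 (0.31, adjusted p = 0.153). Its value in the IGF2BP3 knockout from replicate 1 libraries alone was 0.13 (adjusted p = 0.0937). The IGF2BP2 knockout gave 0.33 ± 0.07 (edgeR adjusted p = 0.00112) with no overlap of treatments, from at most 207 CPM in DMSO to at least 209 CPM in tunicamycin. By replicate number the mean log2 ratio over 8 lines was 0.23 ± 0.17 (SD) in replicate 1 and 0.39 ± 0.07 in replicate 2. Several genes overlap *TAF1D* on the other strand, *MED17*, *CEP295* and *C11orf54* among them, so its counts carry the same uncertainty.

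*ZFAS1* (chr20:49278178-49295738, plus strand), host of the *SNORD12* family, was the only one of the 10 whose DMSO libraries separated by replicate number. Parental controls were at 8.78 and 14.9 CPM in P1 and 8.62 and 16.2 CPM in P2, and treated libraries at 17.05 and 16.7 CPM in P1 and 12.3 and 21.7 CPM in P2. Over all lines the 8 replicate 1 controls lay between 8.21 and 12.8 CPM and the 8 replicate 2 controls between 13.8 and 17.4 CPM, with no overlap. The log2 fold change in parental cells was 0.49 ± 0.25 (edgeR adjusted p = 0.191) and in the IGF2BP3 knockout 0.32 ± 0.19 (adjusted p = 0.22), and neither passed. In the fit blocked on replicate number both passed, at 0.51 (edgeR adjusted p = 0.00597) and 0.33 (adjusted p = 0.00727). The parental value also passed with no filter on low counts (0.48, adjusted p = 1.58e-04) and with counts summed per line (0.51, adjusted p = 9.45e-06). Summing leaves 2 values per treatment, 1 each for P1 and P2. Its p-value therefore does not measure the spread between replicate numbers. Without the block, the IGF2BP2 knockout value of 0.41 ± 0.14 passed (edgeR adjusted p = 0.0288). That call did not hold without clone B7 (adjusted p = 0.134), without clone F6 (0.0749) or without the control libraries of G6 (0.0572). Within a replicate number the level with tunicamycin was higher in 16 of 16 comparisons of a line with itself, with a mean log2 ratio of 0.55 ± 0.20 (SD, n = 8) in replicate 1 and 0.27 ± 0.13 in replicate 2. Tests on replicate 1 alone and replicate 2 alone gave 0.76 and 0.30 in parental cells (edgeR adjusted p = 1.18e-08 and 0.0106) and 0.46 and 0.23 in the IGF2BP3 knockout (adjusted p = 5.91e-04 and 0.0203). Such tests, too, hold 1 library per line and treatment and leave out the spread between replicate numbers. *ZNFX1*, which overlaps *ZFAS1* by 249 bases on the other strand, fell by 0.65 on the log2 scale in parental cells (edgeR adjusted p = 2.46e-05).

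*SNHG12* and *SNHG16* did not rise. *SNHG12* (chr1:28578538-28583132, minus strand), which hosts *SNORD99* and snoRNAs of the SNORA type, was at 42.2, 45.7, 44.7 and 43.2 CPM in parental controls and at 39.8, 41.5, 41.8 and 39.1 CPM in parental treated libraries. Each treated library lay below each control by a small margin, and the log2 fold change was -0.11 ± 0.05 (edgeR adjusted p = 0.166). It was -0.14 ± 0.05 in the IGF2BP3 knockout (edgeR adjusted p = 0.0505) and -0.19 ± 0.06 in the IGF2BP2 knockout, where it fell (edgeR adjusted p = 0.0265). The IGF2BP3 knockout value did pass in the blocked fit (adjusted p = 0.0314), with a mean CPM of at least 1 (0.0448) and with all 32 libraries in 1 fit (0.0479). It also passed with counts summed per line (0.0183) and in replicate 2 libraries alone (0.00825), which leave out the spread between replicate numbers. The fall in the IGF2BP2 knockout did not pass without clone B7 (-0.14, adjusted p = 0.198), without clone G6 (-0.14, adjusted p = 0.22), without the G6 control libraries (-0.14, adjusted p = 0.205), or in replicate 1 libraries alone (-0.15, adjusted p = 0.128). *SNHG16* (chr17:76557766-76565348, plus strand), host of *SNORD1A*, *SNORD1B* and *SNORD1C*, was at 91.9, 82.8, 87.5 and 82.5 CPM in parental controls and 87.1, 79.1, 89.7 and 81.9 CPM in parental treated libraries. Its log2 fold changes were -0.03 ± 0.05, -0.03 ± 0.05 and -0.02 ± 0.05 in the 3 genotypes (edgeR adjusted p = 0.79, 0.632 and 0.802). The 95% intervals ran from -0.15 to 0.10, -0.13 to 0.07 and -0.12 to 0.08, all below the lower bounds of 0.58, 0.62 and 0.63 for *SNHG1*.

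**Figure D2:**
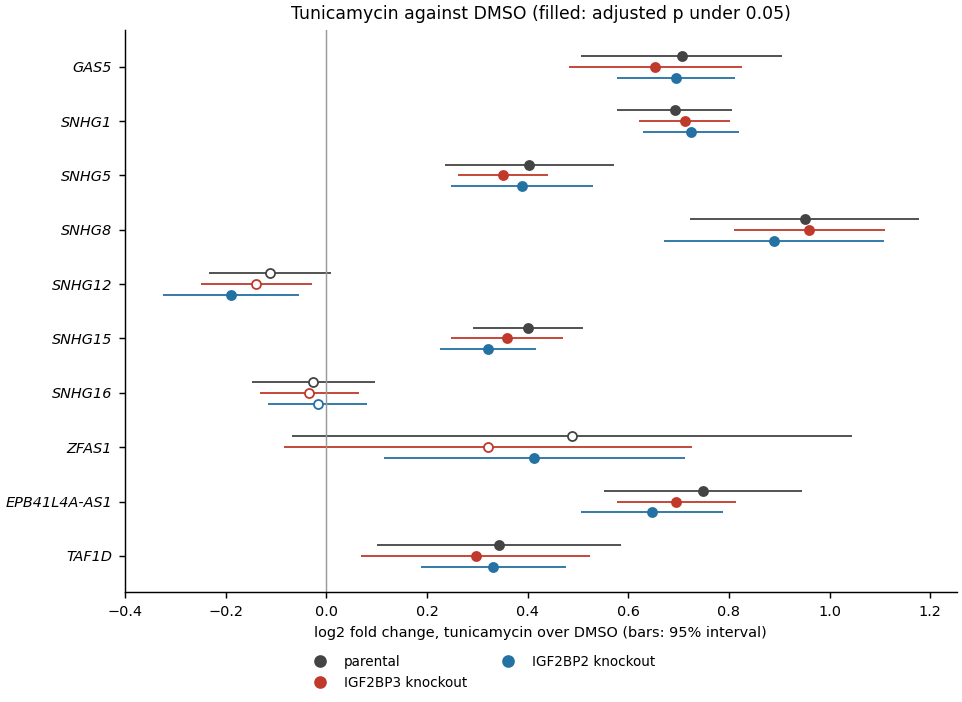
Log2 fold change of tunicamycin over DMSO (horizontal axis) for each transcript (vertical axis) in parental, IGF2BP3 knockout and IGF2BP2 knockout cells. Bars are 95% intervals from the quasi-likelihood fit, and filled points have an adjusted p under 0.05. *SNHG8* lies furthest right at 0.89 to 0.96, *SNHG16* lies close to 0, *SNHG12* lies below 0 and *ZFAS1* has the widest intervals.

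Every tunicamycin library exceeded every DMSO library for 6 transcripts in each genotype. Over all genes tested this held for 13.1% in parental cells, 8.41% in the IGF2BP3 knockout and 8.62% in the IGF2BP2 knockout. *GAS5*, *SNHG1*, *SNHG8*, *SNHG15* and *EPB41L4A-AS1* were separate in all 3, *SNHG5* in parental cells and the IGF2BP3 knockout, and *TAF1D* in the IGF2BP2 knockout. Set beside the annotated starts, the parental log2 fold changes of the 4 transcripts with a C and at least 4 pyrimidines there were -0.11 for *SNHG12*, 0.34 for *TAF1D*, 0.40 for *SNHG5* and 0.49 for *ZFAS1*. Those of the 5 whose RefSeq start lacks it were -0.03 for *SNHG16*, 0.69 for *SNHG1*, 0.71 for *GAS5*, 0.75 for *EPB41L4A-AS1* and 0.95 for *SNHG8*. For *GAS5* other annotated transcripts do begin with the tract. A relation between the start and the response was not tested.

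The response was next taken line by line, with 1 contrast for each of the 8 lines in a fit of all 32 libraries. The number of the 10 transcripts called higher was 6 in P1, 6 in P2, 6 in A3, 5 in D12, 6 in E4, 6 in B7, 6 in F6 and 5 in G6. The shares of the 15622 genes tested that were called higher were 8.48% in P1, 7.14% in P2, 7.39% in A3, 7.07% in D12, 6.8% in E4, 7.5% in B7, 7.71% in F6 and 8.34% in G6. *GAS5*, *SNHG1*, *SNHG8*, *SNHG15* and *EPB41L4A-AS1* were called higher in 8 of 8 lines, and *SNHG5* in 6, all but D12 and G6. *GAS5* was the most even of these, with log2 fold changes from 0.60 in E4 to 0.73 in B7. *SNHG8* ranged from 0.68 in G6 to 1.08 in F6, and *EPB41L4A-AS1* from 0.44 in G6 to 0.86 in P2. *SNHG12* was called lower in B7 and G6 (-0.29 in both), and its value in F6 was 0.0031. *ZFAS1* and *TAF1D* had positive values in all 8 lines and passed in 0 of them (edgeR).

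**Figure D3:**
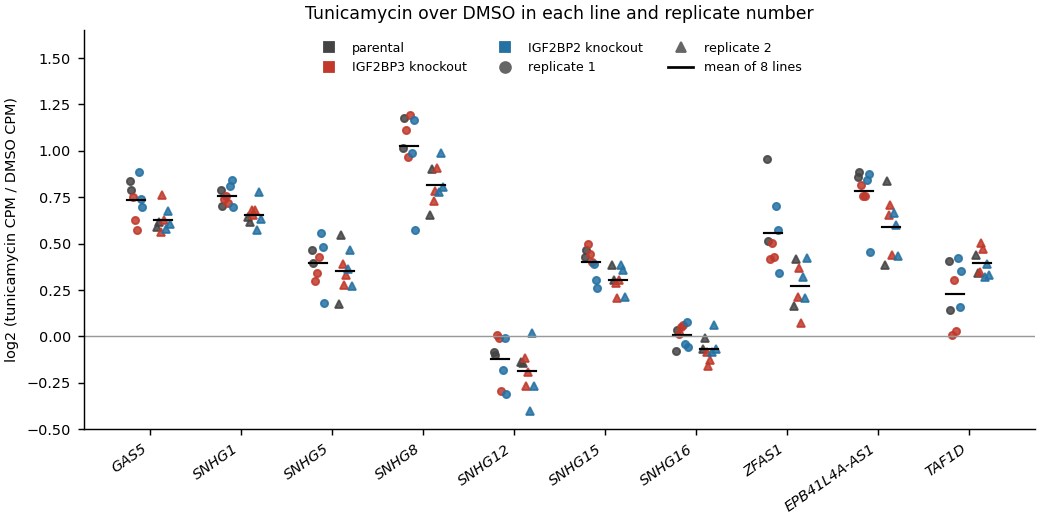
Log2 ratio of tunicamycin CPM to DMSO CPM (vertical axis) for each transcript (horizontal axis), in each of the 8 lines and within each replicate number. Circles are replicate 1, triangles replicate 2, colours the genotype and black lines the mean of 8 lines. The ratios of 8 transcripts are all above 0 in 16 of 16 pairs, while *SNHG12* has 2 of 16 and *SNHG16* 6 of 16 above 0.

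Matched by line and replicate number, the tunicamycin library was higher in 16 of 16 pairs for 8 of the transcripts. The exceptions were *SNHG12*, higher in 2 of 16, and *SNHG16*, higher in 6 of 16. The smallest ratio among the 8 was that of *TAF1D* in replicate 1 of A3, at 0.0057 on the log2 scale, and the largest that of *SNHG8*, at 1.19. Principal component 2 of all genes, with 15.3% of the variance, separated replicate 1 from replicate 2 libraries, and component 1, with 30.7%, separated the treatments. What the replicate number stands for is not given in the labels. For 7 of the 8 the mean ratio was larger in replicate 1 than in replicate 2, and for *TAF1D* it was smaller. Whether this comes from the libraries or from the cells was not tested.

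No difference in response between knockout and parental cells was detected for these transcripts. A test of the difference between the responses of a knockout and parental cells called 0 of the 10 transcripts for IGF2BP3 and 0 for IGF2BP2, and 0 when the knockouts were compared with each other (edgeR quasi-likelihood test, 0% of the 15313, 15178 and 14916 genes tested in each). At an unadjusted p under 0.05 the transcripts also numbered 0 in all 3 comparisons, and the genes tested numbered 255, 213 and 271. DESeq2 called 0 genes in each of the 3 as well. For *SNHG8* the difference was 0.01 (95% interval -0.26 to 0.29) for the IGF2BP3 knockout and -0.06 (-0.41 to 0.29) for the IGF2BP2 knockout. For *SNHG1* it was 0.03 (-0.12 to 0.17) and 0.03 (-0.12 to 0.18). Over the 9 transcripts other than *ZFAS1* no interval went below -0.41 or above 0.36 in any of the 3 comparisons. The *ZFAS1* intervals were wider, from -0.87 to 0.55 for the IGF2BP3 knockout and from -0.67 to 0.52 for the IGF2BP2 knockout.

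For the levels of the 10 transcripts, too, no difference between knockout and parental cells passed the test. In the IGF2BP3 knockout 0 of 10 were called in DMSO, where 1.61% of 14568 genes were called, and 0 of 10 in tunicamycin, where 0.718% of 14626 were. In the IGF2BP2 knockout the counts were 0 of 10 in DMSO (0.0137% of 14564 genes) and 0 of 10 in tunicamycin (0.00694% of 14419). At an unadjusted p under 0.05 in edgeR 1 of 10 passed in the first of these comparisons and 0 in the others, and DESeq2 called 0 in all 4. The one was *SNHG8*, at -0.20 ± 0.07 in IGF2BP3 knockout cells in DMSO (unadjusted p = 0.0185, edgeR adjusted p = 0.23). Its controls there were 26.5 to 33.6 CPM against 33.4 to 38.6 CPM in parental cells, so the groups met at the edge. These tests of level have no term for line and treat libraries of 1 line as independent, so their intervals can be too narrow. *GAS5* differed by -0.06 (95% interval -0.26 to 0.13) and *SNHG1* by -0.02 (-0.11 to 0.08) between the IGF2BP3 knockout and parental cells in DMSO. In the IGF2BP2 knockout the values were 0.09 (-0.12 to 0.30) for *GAS5* and -0.001 (-0.13 to 0.13) for *SNHG1*.

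**Figure D4:**
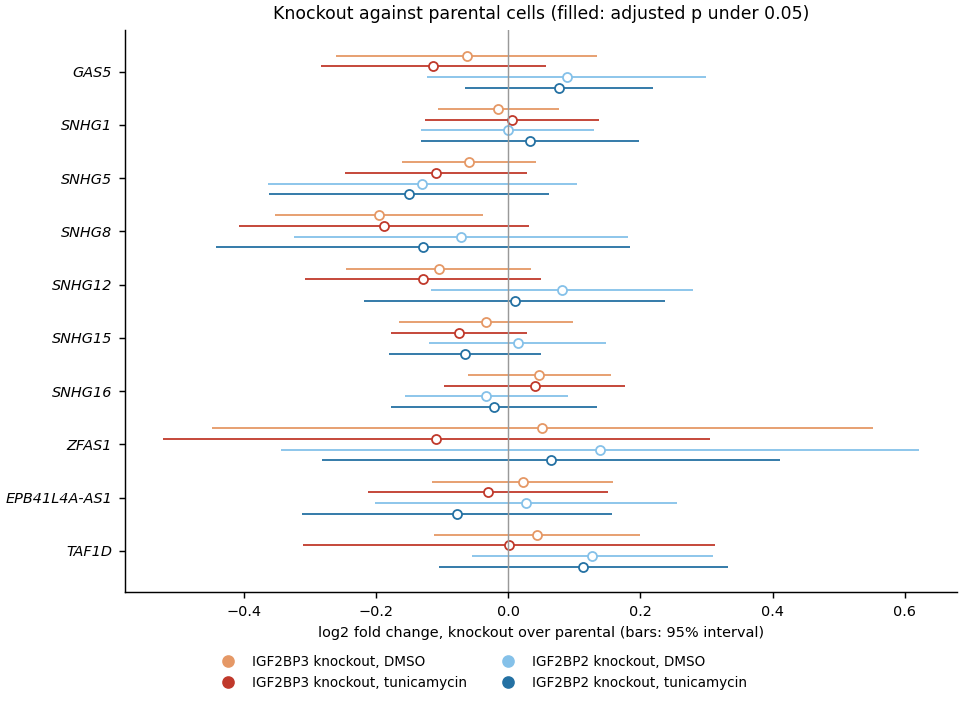
Log2 fold change of knockout over parental cells (horizontal axis) for each transcript (vertical axis), in DMSO and in tunicamycin. Bars are 95% intervals from fits without a term for line, and every point is open, since 0 of 40 values passed the threshold. Intervals are widest for *ZFAS1*.

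Clones of one knockout differed from each other in level. Among the IGF2BP2 knockout clones 7 of 10 transcripts differed in level (joint edgeR test of the clone terms, treatment as a covariate), against 26.4% of 14145 genes. They were *GAS5*, *SNHG1*, *SNHG5*, *SNHG8*, *SNHG12*, *SNHG16* and *EPB41L4A-AS1*, with adjusted p from 0.00351 to 0.0429. The error in this joint test comes from the spread within clones, and no label says that libraries of a clone were separate cultures. Clone B7 had the lowest mean of the 3 clones in both treatments for all 10 transcripts, also for *SNHG15*, *ZFAS1* and *TAF1D*, which were not called. The mean *SNHG5* level in DMSO was 45.8 CPM in B7, 58.3 CPM in F6 and 64.8 CPM in G6, and that of *EPB41L4A-AS1* 14.99 CPM in B7, 20.04 CPM in F6 and 20.05 CPM in G6. *SNHG12* was at 40.2, 46.1 and 52.9 CPM in the same order. B7 and F6 share a guide. Among the IGF2BP3 knockout clones 1 of 10 differed, against 7.63% of 14265 genes. It was *SNHG12*, with mean DMSO levels of 39.0 CPM in A3, 45.5 CPM in D12 and 38.5 CPM in E4 (edgeR adjusted p = 0.0217). The response to tunicamycin differed among clones for 0 of 10 transcripts in either knockout (0% of genes in both, edgeR). At an unadjusted p under 0.05 the transcripts again numbered 0, while 85 genes among the IGF2BP3 and 193 among the IGF2BP2 knockout clones did so, and DESeq2 called 1 and 2 genes, 0 of them among the 10.

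Related gene groups were set beside the 10 transcripts. Their counts are to be read against the shares of all genes tested, which were 12.5% higher and 14.3% lower in parental cells, 16.2% and 17.6% in the IGF2BP3 knockout and 19.2% and 20.9% in the IGF2BP2 knockout. In parental cells, of 15 other noncoding snoRNA hosts that passed the filter, of 19 listed, 3 rose and 1 fell, with a median log2 fold change of 0.19. *SNHG17* (0.59 ± 0.08) and *SNHG29* (0.37 ± 0.08) rose most, and *SNHG30* fell by 0.48. Protein-coding snoRNA hosts numbered 18, of which 5 rose and 2 fell, with a median of 0.07. Among them the translation factor *EIF4A2* (0.40 ± 0.05) and the sorting nexin *SNX5* (0.31 ± 0.05) rose, and the chaperone gene *HSPA8* fell by 1.77 and the Ran regulator *RCC1* by 0.23. In the IGF2BP3 and IGF2BP2 knockouts the other noncoding hosts numbered 3 and 4 higher and 0 and 4 lower of 15, and the protein-coding hosts 5 and 6 higher and 3 and 2 lower of 18.

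**Figure D5:**
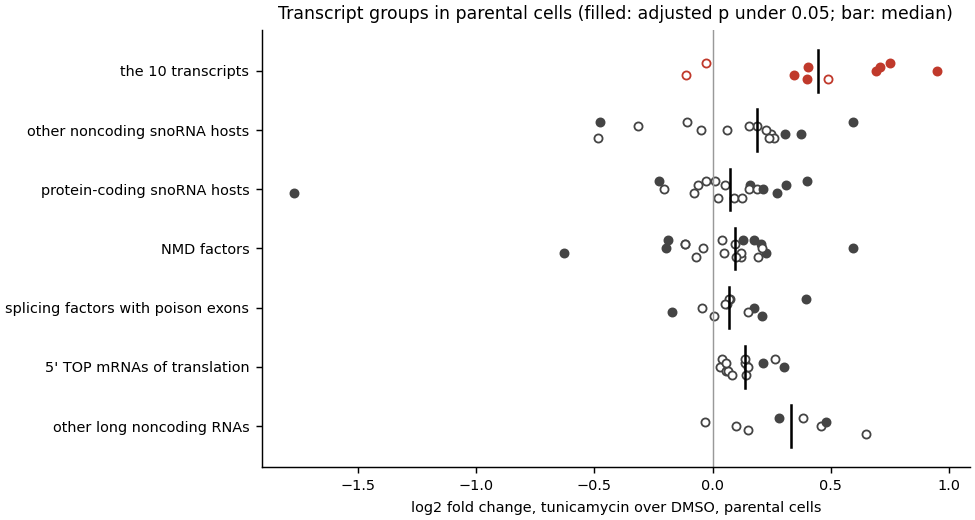
Log2 fold change of tunicamycin over DMSO in parental cells (horizontal axis) for the 10 transcripts and for 6 related gene groups (vertical axis). Each point is a gene, filled where the adjusted p is under 0.05, and black bars are medians. The median of the 10 is 0.45, and the medians of the other groups drawn lie between 0.07 and 0.33. Not drawn are the stress mRNAs described as NMD targets, with a median of 1.28, and the genes near the transcripts, with a median of -0.09.

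Of 20 NMD factors 5 rose and 3 fell in parental cells, with a median of 0.10, against 12.5% and 14.3% of all genes. *PNRC2*, which links the pathway to decapping, rose by 0.59 ± 0.05, and the release factor gene *ETF1* by 0.23 ± 0.05. *SMG8*, a regulator of the kinase SMG1, fell by 0.63, and *EIF4A3*, a core part of the exon junction complex, fell by 0.20. The counts were 5 and 2 in the IGF2BP3 knockout and 4 and 3 in the IGF2BP2 knockout, where the shares of all genes were also larger. Of 10 stress mRNAs that have been described as NMD targets, 9 rose and 1 fell in each genotype, with a median of 1.28 in parental cells. *DDIT3* (6.81 ± 0.16), the factor CHOP, and *ATF3* (3.495 ± 0.11) rose most, and *BAG1* fell by 0.27. These mRNAs are also targets of the stress response, so this group cannot tell the pathways apart. Of 11 splicing factor genes with poison exons 3 rose and 1 fell, with a median of 0.07. *TRA2B* (0.40 ± 0.04) and *TRA2A* (0.21 ± 0.05) rose and *SRSF2* fell by 0.17. Gene-level counts do not separate the transcript with the poison exon from the others.

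Of 13 translation genes with a 5′TOP tract that were tested, of 14 listed, 2 rose and 0 fell in parental cells, with a median of 0.14, against 12.5% and 14.3% of all genes. They were *TPT1* (0.30 ± 0.08) and the initiation factor *EIF4B* (0.21 ± 0.07). In the IGF2BP3 and IGF2BP2 knockouts 3 and 5 of 13 rose and 0 fell, with medians of 0.09 and 0.07, where 16.2% and 19.2% of all genes rose. Of 8 other long noncoding RNAs, 2 rose and 0 fell in parental cells, with a median of 0.33. These were *OIP5-AS1* (0.48 ± 0.06) and *NORAD* (0.28 ± 0.04), both abundant cytoplasmic RNAs. *NEAT1* and *MALAT1*, which stay in the nucleus, had wide errors (0.65 ± 0.57 and 0.15 ± 0.37) and did not pass. Of 9 genes next to or overlapping the 10 transcripts, 1 rose and 1 fell in every genotype. They were the *SLC3A2* and *ZNFX1* described above in parental cells. The difference in response between genotypes called 0 genes in each of these groups (edgeR).

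The deposited table also has rows for snoRNAs. GENCODE release 29 places 30 of them inside 9 of the 10 transcripts, and all 30 are in the table. The same search placed 0 inside *GAS5* on its strand, so no snoRNA of *GAS5* was analysed here. Of the 30, 6 had any count over the 32 libraries. The sums were 411 for *SNORD6* in *TAF1D*, 268 for *SNORA13* in *EPB41L4A-AS1*, 162 for *SNORD99* in *SNHG12*, 157 for *SNORD12C* and 21 for *SNORD12B* in *ZFAS1*, and 47 for *SNORD1B* in *SNHG16*. The other 24 were at 0, which allows up to 3 counts over all libraries, for counting error only. How reads over both a snoRNA and its host were assigned is not given, so a 0 need not mean that such reads were absent. The libraries were selected for poly(A), which mature snoRNAs lack. The summed snoRNA counts came to 1.80% of the host's count for *ZFAS1*, 1.67% for *EPB41L4A-AS1* and under 1% for the other hosts, so the response of the snoRNAs themselves could not be read from these data.

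Across the 16 means of line and treatment, 8 of the 10 transcripts followed the mean of the group. Pearson's r with that mean, to which each also contributes, was 0.91 to 0.96 for these 8, 0.24 for *SNHG16* and 0.04 for *SNHG12*. Among 10130 genes with a mean count of at least 100, the 5 most like the group mean over the 16 means were *TXNRD1* (r = 0.97), *UPP1* (0.96), *LIAS* (0.96), *ARL14EPL* (0.96) and *EEF1A1* (0.96). The 16 means share 8 lines and 2 treatments, and the treatment separates them, so these values describe a shared pattern and carry no test.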

How the data were processed

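The deposited table holds the authors' raw gene counts, as whole numbers, of 32 poly(A) libraries made with a directional kit and read as pairs of 100 bases, per the labels' protocols. The submitters' processing notes name STAR 2.7.5c and hg38, with no role given. The counting tool, its annotation and its use of strand are not given in the sources used here. No column of the table was left unmapped. Counts were tested with edgeR 4.0.16 in R 4.3.3 (TMM, filterByExpr, quasi-likelihood test, Benjamini-Hochberg adjustment over all genes tested, threshold 0.05), with the line as a term for treatments. Each SE was derived from the fold change and its F value. CPM (counts scaled to a TMM library size) was computed from all 32 libraries together, with SD over libraries. Positions are from GENCODE release 29 on GRCh38, whose identifier versions differ from those of the table for 9 of the 10 transcripts. Fits were tested on simulated counts. These were drawn independently, with no effect of replicate number and, in the knockout comparison, none of clone. They therefore cannot show how the tests fare with such effects. Alternatives were DESeq2 1.42.0, its size factors, other filters, 1 fit of all libraries, counts summed per line, a replicate block and leaving out lines or libraries. Deviations of same-numbered libraries from their cell means correlated with r above 0.1 in 119 of 120 pairs (median 0.375, lowest 0.0878), so the rule that every pair exceed 0.1 was not met and the tests carry no block. The blocked value is given where it changed a call. All 10 transcripts were named, as were, per gene group, up to 2 called rises and 2 called falls of greatest size in parental cells, the 5 genes most like the group mean, their snoRNAs and the targeted genes. *NEAT1*, *MALAT1*, *EPB41L4A* and the keratins, markers and stress genes come from lists. The transcripts and lists were chosen with earlier results of these data known.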

Additional observations from a re-analysis of the deposited data

Results flagged for a closer look

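*EPB41L4A-AS1* had 1 library far from the other 3 in each parental treatment, and it was the same line and replicate number in both. With DMSO, replicate 2 of P1 was the highest library at 19.2 CPM, where the other 3 were at 17.6 to 17.8 CPM. With tunicamycin, replicate 2 of P1 was the lowest at 25.0 CPM, where the other 3 were at 31.8 to 32.6 CPM. The gap to the nearest library, as a share of the whole range, exceeded Dixon's critical value for 4 samples in both cases. Of 60 sets of libraries looked at over the 10 transcripts, 2 were marked in this way, and chance marks about 1 in 20.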

How the results depend on the processing

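Of 1360 values of single transcripts under the alternatives, 1330 kept their direction or had passed in neither setting and stayed on the same side of the threshold, 14 no longer passed, 16 newly passed and 0 reversed a call. In 83 of them the sign differed where neither value passed. The changed calls were those of *ZFAS1*, *TAF1D*, *SNHG12* and, in 1 case, *SNHG16* (IGF2BP3 knockout, replicate 2 libraries alone, -0.11, adjusted p = 0.0284). The number of transcripts that rose ranged from 6 to 8 in parental cells, 6 to 8 in the IGF2BP3 knockout and 7 to 8 in the IGF2BP2 knockout. With a replicate block it was 8, 8 and 8, with *ZFAS1* passing in parental cells (0.51, adjusted p = 0.00597) and the IGF2BP3 knockout (0.33, adjusted p = 0.00727) and *SNHG12* lower in the IGF2BP3 knockout (-0.14, adjusted p = 0.0314). The replicate block also raised the number of transcripts that differed in level among IGF2BP3 knockout clones from 1 to 2, and the genes called for tunicamycin in parental cells from 3854 to 5989. The replicate number is a label with no stated meaning. Same-numbered libraries all correlated positively, and with 2 libraries a cell the opposite numbers then correlate negatively. The parental *ZFAS1* value also passed with no filter on low counts (0.48, adjusted p = 1.58e-04) and with counts summed per line (0.51, adjusted p = 9.45e-06), and the cause was not tested. Counts summed per line and single replicate numbers leave 1 value per line and treatment. Their p-values do not measure the spread between replicate numbers. *SNHG12* in the IGF2BP3 knockout also passed with a mean CPM of at least 1 (-0.14, edgeR adjusted p = 0.0448) and with all 32 libraries in 1 fit (-0.14, adjusted p = 0.0479). *TAF1D* in the IGF2BP3 knockout missed the threshold with a mean CPM of at least 1 (0.30, adjusted p = 0.051), and *ZFAS1* in the IGF2BP2 knockout with all 32 libraries in 1 fit (0.41, adjusted p = 0.0992). For knockout against parental cells DESeq2 called 507, 270, 12 and 3 genes where edgeR called 235, 105, 2 and 1, and 0 of the 10 transcripts under either. With 188 to 452 counts a library, *ZFAS1* was the least precise of the 10.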
